A study of Mus musculus with 4 samples.

Results

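Germ cell restricted antigens are proteins of meiosis, of the piRNA pathway and of sperm and spermatids, many of which medullary thymic epithelial cells (mTECs) also transcribe. The group held 34 genes, all of them found among the 23337 genes of the count table by their symbols. They were picked by name, as germ cell genes that mTECs can transcribe, without a threshold on their values. RNA from sorted mTECs was sequenced in 4 libraries, 2 labelled wild type (WT 1 and WT 2) and 2 labelled Sirt6-/- (Sirt6-/- 1 and Sirt6-/- 2). All mice were 4 weeks old, and the cells were sorted as CD45-EpCAM+UEA-1+Ly51-. The Sirt6-/- mice were Foxn1-Cre Sirt6 loxp/loxp, and the wild-type mice were littermates or age-matched mice without Foxn1-Cre. Foxn1-Cre acts in the whole thymic epithelium and not in mTECs alone, and the control mice did not carry Cre. Each library was described as an independent sample, and whether it came from 1 mouse or from pooled mice is not given in the sources used here.

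The medulla of the thymus shows developing T cells the proteins of other organs, so that T cells that react against them are removed or turned into regulatory T cells. Many of these tissue-restricted antigens depend on Aire, a transcriptional regulator of mature mTECs, and single mTECs each transcribe a small and varying share of them. Germ cell genes are a special case, because the testis is sheltered from the immune system and sperm proteins first appear after T cell tolerance is set up. In somatic cells many of these genes are kept silent by DNA methylation and by repressor complexes. SIRT6 is a nuclear deacetylase of histones.

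Of the 34 members, 29 could be tested, 1 passed an unadjusted p of 0.05 between the groups, and none passed after adjustment. Of all genes tested 5.27% passed the same unadjusted threshold as higher and 3.32% as lower. Stra8, which is induced by retinoic acid and starts meiosis, was 2.41-fold higher in the libraries labelled Sirt6-/-. The most abundant members, the lipid-binding protein Fabp9 and the tail and centriole protein Odf2, had fitted log2 fold changes of 0.07 and 0.23. Most of the other members were near or under a few TPM (a level scaled by gene length and library size). In 82.8% of the tested members the larger difference between 2 libraries of a label exceeded that between the group means. This held for 71.8% of all tested genes.

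The count matrix carried a caution on the labels. Sirt6 itself was counted 622 and 755 times in WT and 882 and 835 times where Sirt6-/- was the label. Its log2 fold change was 0.37 ± 0.32 (SE) with adjusted p = 0.80 in edgeR, so the targeted gene was not measurably lower where its deletion was labelled. Each direction below therefore rests on the labels. Counts over exons outside a deleted part would not show a deletion. The libraries held between 61102704 and 65907745 counts. Epcam was at 798 to 1201 TPM and Aire at 395 to 754 TPM, whereas Ptprc, which encodes CD45, was at 106 to 177 TPM in spite of the CD45- gate.

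The start regions of the members were read to see what these genes share beyond their names. Of the 34 members, 29 matched an entry of the RefSeq promoter windows on GRCm38.p6, and Piwil2, Tdrd6, Odf1, Spo11 and Fabp9 did not. The 250 bases before the start held CACGTG, the E-box, on either strand in 9 of the 29 (31.0%) and in 6.86% of 27025 genes. GCGGGAA, the site type bound by E2F6, stood on either strand in 5 of the 29 (17.2%) and in 4.38% of all genes. TGACGTCA, the cyclic AMP response element, stood in 1 member, Izumo1 (3.45%), and in 1.77% of all genes. No match in a member overlapped another match. The members had a median of 12 CpG in the window and all genes a median of 6. Each of the 3 motifs contains a CpG, and the motif shares were not matched on CpG. For a gene with several RefSeq starts these shares and medians took any window with the motif and the window with the most CpG, in members and all genes alike. With 1 window a gene, the first listed, the medians were 11 and 6, and the windows printed are of that kind. Stra8, the member that passed the test, is printed beside Ddx4, Hormad1 and Sycp3, the 3 members that held both the E-box and the E2F6 type site. Each sequence runs 5′ to 3′ up to the base before the RefSeq start, and capitals mark the motifs. Ddx4 lies at chr13:112652311-112652560, minus strand; Hormad1 at chr3:95559427-95559676, plus strand; Sycp3 at chr10:88459337-88459586, plus strand; and Stra8 at chr6:34920698-34920947, plus strand.
Ddx4: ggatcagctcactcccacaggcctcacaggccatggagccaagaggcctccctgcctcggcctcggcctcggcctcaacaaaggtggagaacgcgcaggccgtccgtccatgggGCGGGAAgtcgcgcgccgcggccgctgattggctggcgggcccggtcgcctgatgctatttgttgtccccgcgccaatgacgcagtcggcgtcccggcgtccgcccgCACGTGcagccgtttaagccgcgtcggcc
Hormad1: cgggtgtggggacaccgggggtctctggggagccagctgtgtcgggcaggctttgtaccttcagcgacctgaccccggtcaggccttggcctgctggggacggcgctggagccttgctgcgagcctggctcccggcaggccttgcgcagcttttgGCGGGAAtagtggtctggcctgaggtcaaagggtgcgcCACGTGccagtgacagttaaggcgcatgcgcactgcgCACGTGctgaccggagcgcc
Sycp3: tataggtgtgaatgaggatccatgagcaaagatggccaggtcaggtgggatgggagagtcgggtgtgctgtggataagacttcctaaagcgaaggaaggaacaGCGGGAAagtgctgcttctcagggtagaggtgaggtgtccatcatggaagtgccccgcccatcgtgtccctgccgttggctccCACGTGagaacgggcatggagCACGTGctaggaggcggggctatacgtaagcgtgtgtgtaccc
Stra8: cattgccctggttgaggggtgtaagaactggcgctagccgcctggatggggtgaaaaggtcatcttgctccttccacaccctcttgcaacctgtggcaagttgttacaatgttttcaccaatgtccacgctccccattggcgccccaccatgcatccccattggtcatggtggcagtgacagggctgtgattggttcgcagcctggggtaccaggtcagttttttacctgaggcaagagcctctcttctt
Stra8 held none of the 3 motifs and 5 CpG, against 31 CpG in Ddx4, 19 in Hormad1 and 12 in Sycp3. The E-box began 29 bases before the RefSeq start in Ddx4, 57 and 20 bases before it in Hormad1, and 64 and 43 bases before it in Sycp3. The RefSeq starts of Ddx4, Sycp3 and Stra8 lie inside the GENCODE M21 spans of these genes, so distances depend on the annotation used. The 9 members with an E-box, which also include Mael, Piwil1, Spata16, Sycp1, Tdrd1 and Tdrd9, had mean levels from 0.127 to 2.60 TPM with a median of 0.295 TPM. The 20 members without one ran from 0 to 61.5 TPM with a median of 1.61 TPM. Of the 8 E-box members that were tested, 4 had a log2 fold change above 0 and 4 below it. A motif match is a description of letters and was not tested as a site.

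Levels differed widely among the members. Fabp9 ranked 1710th of 23337 genes by mean TPM, Odf2 ranked 3126th, Stra8 5374th and Tex14 7322nd, and no other member reached a mean of 10 TPM. The next was Ldhc with a mean of 7.20 TPM, and 12 members had a mean between 0.1 and 1 TPM. Akap4 and Pgk2 had no count in any library. The 4 highest members held 74.5% of the summed TPM of the group in WT 1, 87.7% in WT 2, 79.9% in Sirt6-/- 1 and 82.6% in Sirt6-/- 2. The sum over all 34 members was 240 TPM in WT 1, 255 TPM in WT 2, 285 TPM in Sirt6-/- 1 and 305 TPM in Sirt6-/- 2. Without the 4 highest it was 61.0, 31.4, 57.3 and 52.9 TPM in the same order, so the groups no longer separated and WT 2 stood lowest. The median of the members was 1.31 TPM and that of all genes 5.51 TPM.

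**Figure D1:**
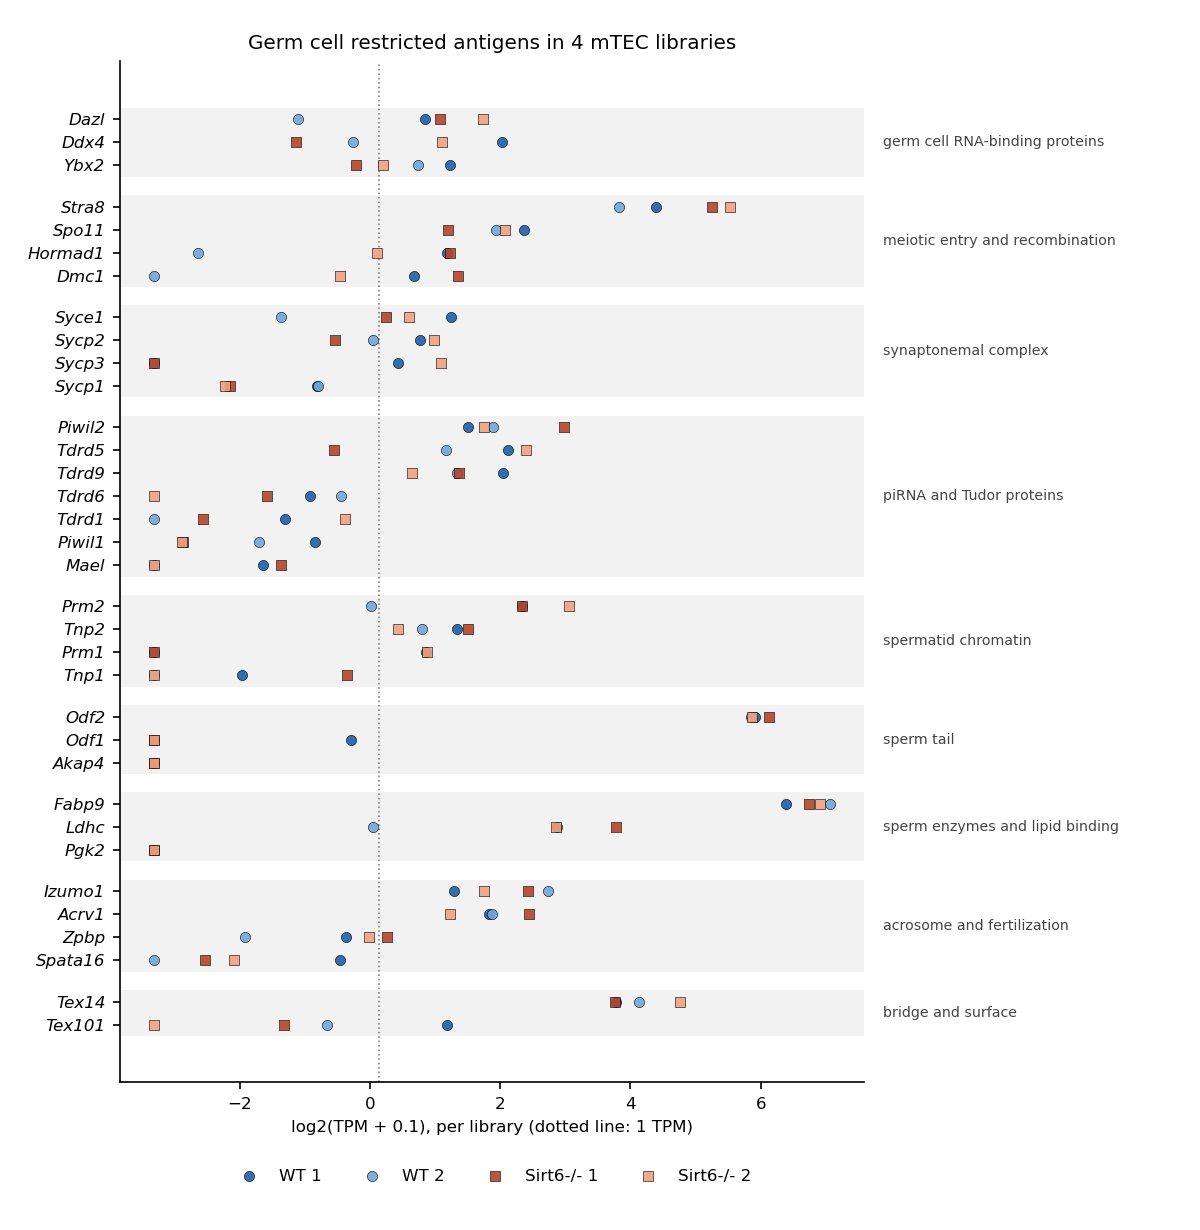
Level of each of the 34 members in each library, as log2(TPM + 0.1), grouped by role; circles are WT libraries, squares are libraries labelled Sirt6-/-, and the dotted line marks 1 TPM. Fabp9, Odf2, Stra8 and Tex14 stand to the right in all 4 libraries, Stra8 is the one of these 4 whose circles and squares are apart, and points at the left edge are counts of 0.

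Of the 34 members, 29 passed the filter on low counts and were tested. The exceptions were Akap4, Pgk2, Odf1, Tnp1 and Spata16. At an unadjusted p under 0.05, 1 member was higher in the libraries labelled Sirt6-/-, where 5.27% of the 18547 genes tested were higher, and 0 members were lower, where 3.32% were lower. In DESeq2 1 member was higher, against 5.8% of all genes, and 0 were lower, against 4.38%. At an adjusted p under 0.05 no member passed in edgeR or DESeq2, and of all genes 0.00539% passed in edgeR and 1.83% in DESeq2. The fitted log2 fold change was above 0 in 16 members and below 0 in 13, with a median of 0.07, and over all genes tested the median was 0.00. The members' median standard error was 1.09 on the log2 scale and that of all tested genes 0.41. In 3 members both Sirt6-/- libraries lay above both WT libraries (Stra8, Dazl and Zpbp), and over all tested genes this held for 21.6%. In 5 members they lay below both WT libraries (Ybx2, Sycp1, Tdrd6, Piwil1 and Tex101), and over all tested genes this held for 20.3%. These counts moved with single libraries. Without WT 1, 4 of the 29 members were higher at p under 0.05 (Stra8, Dazl, Ldhc and Dmc1), where 6.21% of all genes were higher. Without WT 2 none was higher, where 5.45% of all genes were, and without Sirt6-/- 1 Tdrd6 was lower, where 1.79% were lower. Because the libraries are bulk RNA, fewer cells that transcribe a gene and less RNA per cell cannot be told apart.

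**Figure D2:**
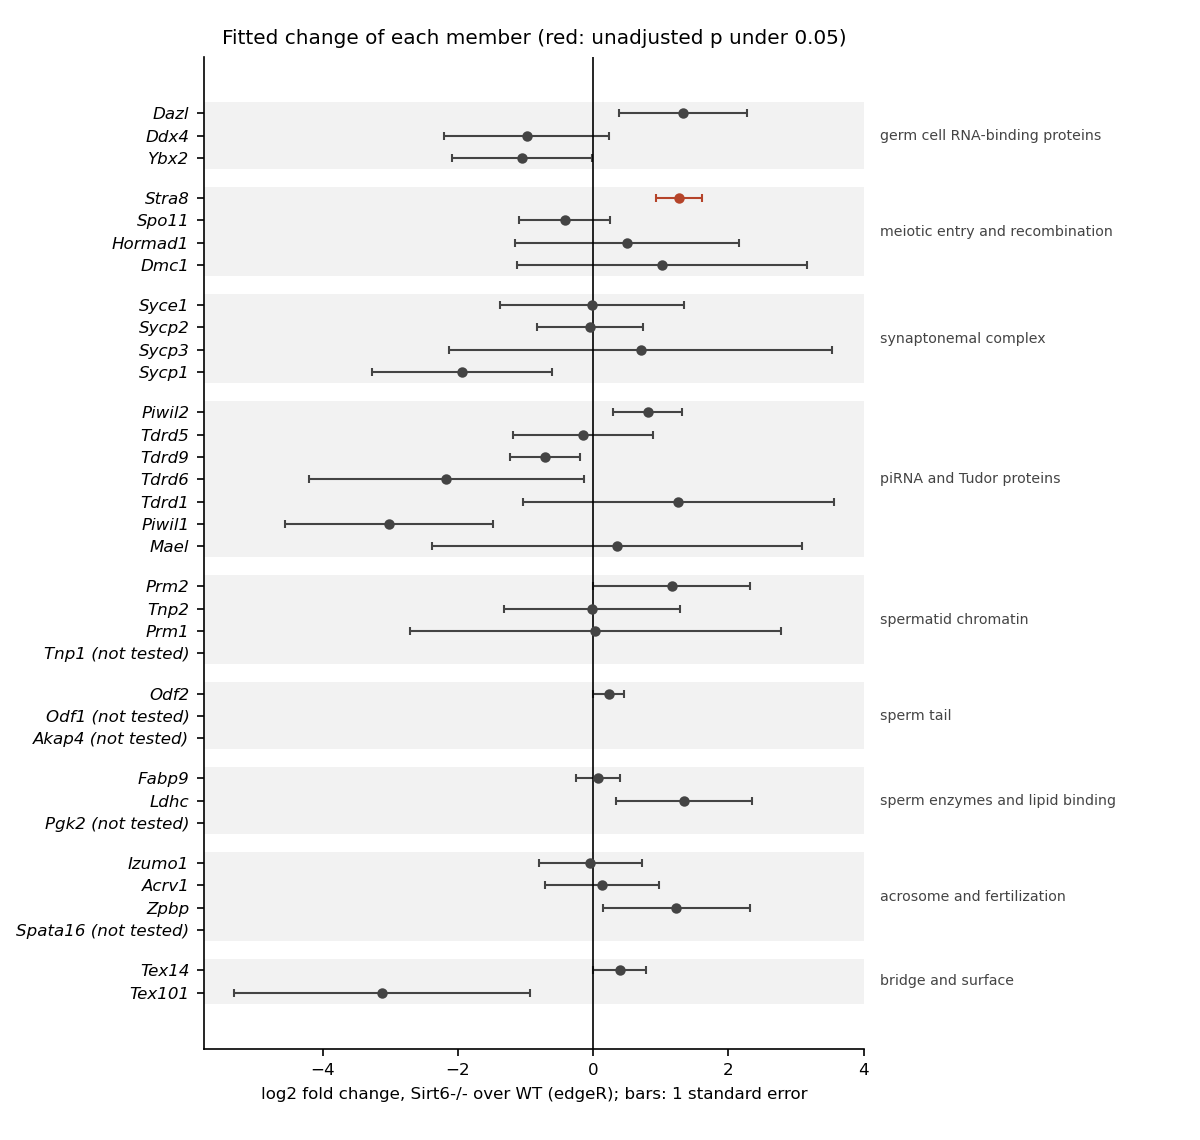
Fitted log2 fold change of each tested member, libraries labelled Sirt6-/- over WT, from edgeR, with bars of 1 standard error; 5 members named on the axis were not tested. The red point is Stra8 at 1.27 with a standard error of 0.34, and Piwil1 and Tex101 have estimates below -3 with standard errors of 1.54 and 2.19.

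The genes of meiotic entry and recombination held the one member that passed. Stra8 spans 34920163 to 34939344 on chromosome 6 (GRCm38, GENCODE M21), and the RefSeq start used for its printed window lies inside that span. Stra8 was counted 917 times in WT 1, 584 in WT 2, 1528 in Sirt6-/- 1 and 1962 in Sirt6-/- 2, or 20.9, 14.1, 37.9 and 46.1 TPM. Both libraries labelled Sirt6-/- lay above both WT libraries. In CPM, counts scaled to the size of each library, the means were 11.6 ± 3.42 in WT and 27.95 ± 3.73 in Sirt6-/- (SD, n = 2 each). The log2 fold change was 1.27 ± 0.34 (SE), with adjusted p = 0.541 in edgeR. DESeq2 gave adjusted p = 0.0676, and over 12 alternative settings the adjusted p ranged from 0.0676 to 0.999. The unadjusted p in edgeR was under 0.05 with all 4 libraries but not without WT 2, where the log2 fold change was 1.0, nor without Sirt6-/- 2, where it was 1.09.

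Marker genes of mTECs and of other cells also differed between the groups. Among 9 mTEC genes 3 were higher at an unadjusted p under 0.05 and 1 was lower. Aire had TPM of 395 and 495 in WT and of 632 and 754 in Sirt6-/-, with a log2 fold change of 0.65 ± 0.18 (SE) and adjusted p = 0.541 in edgeR. The co-stimulatory molecule Cd80 had TPM of 87.8 and 92.1 in WT and of 158 and 186 in Sirt6-/-. The 1 lower was the chemokine Ccl21a, with TPM of 1258 and 3154 in WT and of 346 and 497 in Sirt6-/-. For Ccl21a the log2 fold change was -2.37 ± 0.46 (SE), with adjusted p = 0.541 in edgeR and adjusted p = 9.15e-06 in DESeq2. Of 8 genes of macrophages and dendritic cells 4 were lower. The summed level of the 8 was 9982 and 6267 TPM in WT and 3991 and 4230 TPM in Sirt6-/-. Lyz2 alone was at 9532 and 5941 TPM in WT and at 3664 and 3955 TPM in Sirt6-/-. The fitted log2 fold change was below 0 in 7 of the 8 and above 0 in 1, Ptprc (0.27). Of 7 tuft cell genes 4 were lower, with sums over the 7 of 513 and 599 TPM in WT and of 251 and 257 TPM in Sirt6-/-. Gnb3 alone was at 326 and 385 TPM in WT and at 126 and 142 TPM in Sirt6-/-. Of the 7, 5 had a log2 fold change below 0 and 2 above it, Pou2f3 (0.24) and Dclk1 (0.36). None of 10 thymocyte, 5 B cell and 7 fibroblast and endothelial genes passed in either direction, and 1 of 6 cortical epithelial genes was higher. At an adjusted p under 0.05 no gene of these lists passed in edgeR. With DESeq2 it was passed by 2 mTEC, 2 macrophage and dendritic cell and 3 tuft cell genes, against 1.83% of all genes. No gene of these lists was at 0 in all 4 libraries. The part of these shifts in the level of Stra8 was not tested.

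The other 3 members of this role did not pass. Spo11, the enzyme that makes the double-strand breaks of meiosis, had counts of 254 and 175 in WT against 105 and 206 in Sirt6-/-, at 5.06, 3.72, 2.19 and 4.09 TPM. The fitted log2 fold change was -0.42 ± 0.67 (SE), with adjusted p = 0.91 in edgeR, and the groups overlapped. The strand-exchange protein Dmc1 had 100 counts in WT 1 and 0 in WT 2, then 150 and 40 in Sirt6-/-. The axis protein Hormad1 had counts of 100 and 3 in WT against 94 and 43 in Sirt6-/-. In both genes the WT libraries were farther apart than the group means. Of the 50-base words of the Hormad1 transcript 27.2% also occur in other genes, of which Gm15529 shares the most, so the count of Hormad1 is uncertain.

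The RNA-binding proteins of germ cells were low and uneven. Ddx4, the Vasa helicase that marks germ cells, was counted 344 times in WT 1, 60 in WT 2, 28 in Sirt6-/- 1 and 172 in Sirt6-/- 2. Its TPM of 3.99, 0.736, 0.354 and 2.06 put a high and a low library in each group. On the log2 scale the groups differed by -0.98 ± 1.22 (SE), with adjusted p = 0.88 in edgeR. Dazl, a translational regulator of germ cells, had counts of 151 and 31 in WT against 163 and 279 in Sirt6-/-, at 1.70, 0.365, 2.0 and 3.23 TPM. Here the groups did not overlap, but WT 1 and Sirt6-/- 1 differed by 12 counts, and the log2 fold change was 1.33 ± 0.95 (SE), with adjusted p = 0.751 in edgeR. Without WT 1 it was 2.83 and passed an unadjusted p of 0.05. Ybx2, which stores mRNA in germ cells, had counts of 106 and 70 in WT against 33 and 49 in Sirt6-/-. The log2 fold change of -1.05 had a standard error of 1.03.

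The synaptonemal complex joins homologous chromosomes in meiosis, and its 4 members here lay between 0 and 2.26 TPM in every library. Sycp1, the transverse filament, was the most even of them, with 49 and 47 counts in WT and 12 and 12 in Sirt6-/-. The estimate of its log2 fold change was -1.94 ± 1.33 (SE), with adjusted p = 0.74 in edgeR, and with only genes above 0.1 TPM in all libraries the same estimate passed an unadjusted p of 0.05. Syce1, of the central element, had counts of 100 and 12 in WT against 45 and 61 in Sirt6-/-, with a log2 fold change of -0.02 ± 1.36 (SE) and adjusted p = 0.999 in edgeR. Sycp2, of the lateral element, had counts of 278 and 151 in WT against 93 and 311 in Sirt6-/-, with a log2 fold change of -0.05 ± 0.78 (SE) and adjusted p = 0.991 in edgeR. Sycp3, its partner, had counts of 42 and 0 in WT against 0 and 67 in Sirt6-/-, so that each group held a library without a read. A count of 0 allowed up to 3 counts, between 0.0458 and 0.0497 CPM in these libraries, for counting error only. The exons of Sycp3 overlap Chpt1 on the other strand by 660 bases, and the counting is not stated to use strand.

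The piRNA pathway silences transposons in germ cells, and Tudor proteins are its scaffolds. Piwil2, a Piwi protein, was the most abundant of the 7 members, with 406 and 504 counts in WT and 1058 and 469 in Sirt6-/-. Fitted over both groups, the log2 fold change was 0.81 ± 0.51 (SE), with adjusted p = 0.715 in edgeR, and Sirt6-/- 1 alone lay above WT. Without Sirt6-/- 2 it was 1.28 and passed an unadjusted p of 0.05. Tdrd5 had counts of 439 and 211 in WT against 56 and 520 in Sirt6-/-, the lowest and the highest library thus sharing a label, with a log2 fold change of -0.15 ± 1.03 (SE) and adjusted p = 0.981 in edgeR. The helicase Tdrd9 had counts of 586 and 334 in WT against 329 and 207 in Sirt6-/-. Piwil1 had counts of 54 and 24 in WT against 5 and 4 in Sirt6-/-, with a log2 fold change of -3.02 ± 1.54 (SE) and adjusted p = 0.648 in edgeR. The groups of Piwil1 did not overlap, at a level of 0.0344 to 0.454 TPM. Tdrd6 had counts of 92 and 129 in WT against 46 and 0 in Sirt6-/-. Tdrd1 had 48, 0, 10 and 102 counts, and Mael, a nuage protein, had 11, 0, 13 and 0, each in the order WT 1, WT 2, Sirt6-/- 1 and Sirt6-/- 2.

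Protamines and transition proteins replace histones in spermatids. Prm1, Prm2 and Tnp2 lie close together on chromosome 16 within 10787936 to 10805839 (GRCm38), and each had its own order of libraries. Prm2 was the highest of the 4, with 92 and 16 counts in WT and 84 and 148 in Sirt6-/-, at 4.95, 0.912, 4.94 and 8.22 TPM. The log2 fold change of Prm2 was 1.16 ± 1.16 (SE), with adjusted p = 0.841 in edgeR, and the groups overlapped. Tnp2 had counts of 41 and 26 in WT against 42 and 21 in Sirt6-/-, with a log2 fold change of -0.02 ± 1.30 (SE) and adjusted p = 0.999 in edgeR. Prm1 had 21, 0, 0 and 21 counts, which left 1 library at 0 in each group. Tnp1, which was not tested, had 3, 0, 9 and 0 counts.

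The sperm tail members spanned the whole range. Odf2, an outer dense fiber protein that somatic cells also use at the centriole, was at 60.2 and 57.9 TPM in WT and at 69.5 and 58.2 TPM in Sirt6-/-. Its CPM was 84.6 ± 7.94 in WT and 99.1 ± 20.7 in Sirt6-/- (SD, n = 2 each). The log2 fold change was 0.23 ± 0.23 (SE), with adjusted p = 0.844 in edgeR. Odf1, the partner of Odf2 in the tail, had 24 counts in WT 1 and 0 in the other 3 libraries, and Akap4, of the fibrous sheath, had none.

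Of the enzymes and lipid-binding proteins of sperm, Fabp9 was the most abundant member of the whole group. It had TPM of 83.9 and 134 in WT and of 107 and 120 in Sirt6-/-, so that the Sirt6-/- libraries fell between the WT libraries. The log2 fold change of Fabp9 was 0.07 ± 0.32 (SE), with adjusted p = 0.972 in edgeR. Gm37389 overlaps Fabp9 on the same strand by 344 bases. Of the 50-base words of Fabp9 49.3% also occur in other genes, of which Gm37389 shares the most, so the level of Fabp9 is uncertain. Ldhc, the lactate dehydrogenase of sperm, had counts of 285 and 35 in WT against 494 and 273 in Sirt6-/-, at 7.18, 0.931, 13.6 and 7.10 TPM. WT 2 stood alone at the low end, the log2 fold change was 1.34 ± 1.01 (SE) with adjusted p = 0.767 in edgeR, and without WT 1 it was 3.47 and passed an unadjusted p of 0.05. Pgk2, the sperm form of phosphoglycerate kinase, had no count.

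The acrosome and fertilization members overlapped between the groups except for Zpbp. Izumo1, the sperm protein that binds the egg, had counts of 106 and 279 in WT against 218 and 143 in Sirt6-/-, with a log2 fold change of -0.04 ± 0.76 (SE) and adjusted p = 0.993 in edgeR. Rasip1 overlaps its exons on the same strand. Of the 50-base words of Izumo1 24.5% also occur in other genes, of which Rasip1 shares the most. Acrv1, of the acrosome, had counts of 114 and 112 in WT against 163 and 73 in Sirt6-/-, with a log2 fold change of 0.13 ± 0.84 (SE) and adjusted p = 0.98 in edgeR. The even WT pair lay inside the uneven Sirt6-/- pair. Zpbp, which binds the zona pellucida, had counts of 79 and 19 in WT against 118 and 101 in Sirt6-/-, with a log2 fold change of 1.23 ± 1.09 (SE) and adjusted p = 0.81 in edgeR. Its exons overlap Spata48 on the other strand. Spata16, which is needed to form the acrosome, had 38, 0, 5 and 8 counts and was not tested.

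The remaining members are a bridge and a surface protein. Tex14, which keeps the bridges between germ cells open, was at 13.6 and 17.5 TPM in WT and at 13.4 and 27.0 TPM in Sirt6-/-. The log2 fold change of Tex14 was 0.39 ± 0.39 (SE), with adjusted p = 0.841 in edgeR, and Sirt6-/- 2 alone lay above WT. Tex101, a surface glycoprotein of germ cells, had counts of 69 and 17 in WT against 9 and 0 in Sirt6-/-. The groups did not overlap, and its log2 fold change was -3.12 ± 2.19 (SE), with adjusted p = 0.747 in edgeR.

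Libraries of the same label often lay far apart in these genes. The 2 WT libraries differed by a median of 1.07 on the log2 scale over the 29 tested members and by 0.46 over all tested genes. The 2 Sirt6-/- libraries differed by 1.0 over the members and by 0.41 over all. In 24 of the 29 (82.8%) the larger of these 2 differences exceeded that between the group means, and this held for 71.8% of all tested genes. The members lay at lower levels than all genes, and these comparisons were not matched on level. WT 1 lay above WT 2 in 23 of the 29 (79.3%), against 50.9% of all tested genes. Sirt6-/- 1 lay above Sirt6-/- 2 in 15 of the 29 (51.7%), against 50.2%. The number of members at 1 TPM or more was 23 in WT 1, 12 in WT 2, 17 in Sirt6-/- 1 and 20 in Sirt6-/- 2. Those without a count numbered 2, 10, 5 and 7 in the same order. WT 2 thus had the fewest members with a count, although its summed level was not the lowest, and it also had the fewest genes with a count, 18608 against 18787 to 19475 in the others.

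**Figure D3:**
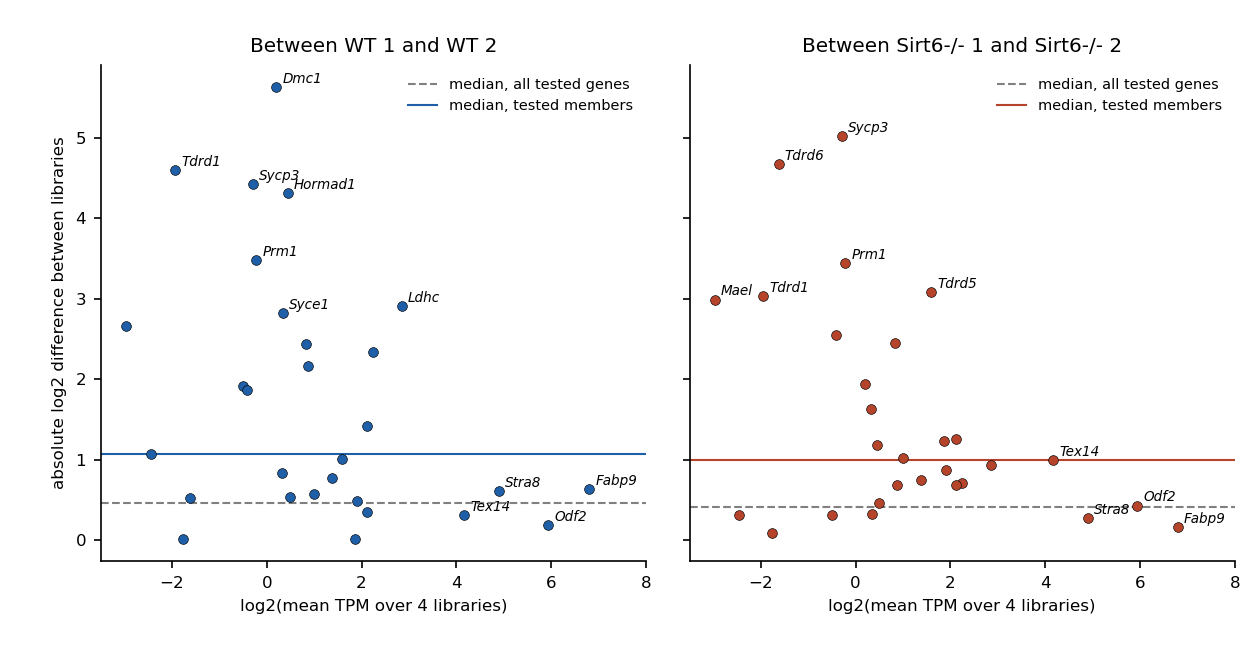
Absolute log2 difference between the 2 libraries of each label for the 29 tested members, against log2 of the mean TPM; the left panel is WT and the right panel Sirt6-/-, the solid line is the members' median and the dashed line the median of all tested genes. Members above 10 TPM lie at or under a difference of 1.0, while differences above 2.7 belong to members under 10 TPM.

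In 8 of the 34 members, 1 library of a group had 0 counts and the other of that group 10 or more: Dmc1, Sycp3, Tdrd1, Tdrd6, Mael, Prm1, Odf1 and Spata16. Over all 23337 genes this held for 10.4%. It followed the level. Among members with a mean of 0.1 to 1 TPM it held for 7 of 12 (58.3%), against 49.2% of all genes in that range, and from 1 to 5 TPM for 1 of 15 (6.67%), against 8.19%.

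Other germ cell genes were set beside the members. Of 32 other meiosis genes 31 were in the table, 26 were tested and none passed an unadjusted p of 0.05 in either direction, with a median log2 fold change of 0.01. Of 18 other piRNA genes 16 were tested and none passed in edgeR, with a median of -0.03, while DESeq2 had 1 lower. Of 35 other spermatid genes 21 were tested, 1 was lower and none higher, with a median of -0.20. The 1 was Akap3, of the fibrous sheath, with 35 and 16 counts in WT and 0 and 0 in Sirt6-/-. Against a floor of 3 counts per library it was at least 8.15-fold lower, with adjusted p = 0.548 in edgeR. Its unadjusted p was not under 0.05 in 8 of 11 alternatives, among them each of the 4 fits without 1 library. Of 16 oocyte genes 14 were tested, 2 were higher and none lower, with a median of -0.22. Leaving out 1 library moved these counts. Without WT 1, 1 meiosis, 2 piRNA, 1 spermatid and 1 oocyte gene were higher and none lower. Without WT 2, 2 meiosis and 3 oocyte genes were higher and 1 meiosis gene lower. Without Sirt6-/- 1, 1 oocyte gene was higher, and without Sirt6-/- 2, 1 oocyte gene was higher and 1 meiosis, 1 spermatid and 1 oocyte gene were lower.

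The 2 oocyte genes encode unlike proteins. Zp2, a component of the egg coat, had counts of 4754 and 6377 in WT against 14836 and 14832 in Sirt6-/-, or 71.6, 102, 243 and 230 TPM. Its log2 fold change was 1.46 ± 0.22 (SE), with adjusted p = 0.54 in edgeR and adjusted p = 2.31e-05 in DESeq2. Over the alternatives the adjusted p of Zp2 ran up to 0.999. Sohlh2, a transcription factor of early germ cells, had counts of 36 and 110 in WT against 276 and 331 in Sirt6-/-. For Sohlh2 the log2 fold change was 2.09 ± 0.79 (SE), with adjusted p = 0.563 in edgeR. The unadjusted p was not under 0.05 with either Sirt6-/- library or WT 1 left out (2.18, 1.97 and 1.47 on the log2 scale without Sirt6-/- 1, Sirt6-/- 2 and WT 1), nor when scaled by library size alone (2.0).

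Genes listed as repressors of germ cell genes in somatic cells had a median level of 27.2 TPM. E2f6 (2.35 TPM) and Ring1 (4.20 TPM) were under the median of all genes. Sirt6 was on this list as the targeted gene, and a role for it in repressing germ cell genes was not tested. All 18 genes of the list were tested for a difference, with a median log2 fold change of 0.10. Of these 1 was higher and none lower in edgeR, and 1 was higher and 1 lower in DESeq2. The 1 higher was Dnmt3a, a DNA methyltransferase, with 20.4 and 23.4 TPM in WT and 31.1 and 34.4 TPM in Sirt6-/-, a log2 fold change of 0.60 ± 0.19 (SE) and adjusted p = 0.541 in edgeR. Its unadjusted p was not under 0.05 without WT 1 (0.50), Sirt6-/- 1 (0.66) or Sirt6-/- 2 (0.49), nor in limma on TPM plus 1 (0.56) or plus 0.1 (0.58). The 1 lower in DESeq2 was Pcgf6, a Polycomb subunit, which is named here after its values were seen. It had counts of 1692 and 2128 in WT against 767 and 1292 in Sirt6-/-, with a log2 fold change of -0.85 ± 0.35 (SE) and adjusted p = 0.595 in edgeR. Pcgf6 was also lower at an unadjusted p under 0.05 with upper quartile scaling, library size alone, the replicate block and both limma fits, and without Sirt6-/- 2. With only genes above 0.1 TPM in all libraries, and without WT 2, the 1 repressor lower was instead Max, at 156 and 26.0 TPM in WT and at 7.76 and 30.5 TPM in Sirt6-/-. Without WT 1 or Sirt6-/- 1 no repressor was lower, and without Sirt6-/- 2 both Max and Pcgf6 were.

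Genes of motile cilia, which are built like the sperm tail, had a median of -0.85 over 18 tested. Of these 1 was higher and 2 were lower in edgeR, and 1 was higher and 5 were lower in DESeq2. With a library left out 0 or 1 was higher, and 7 were lower without WT 1, 1 without WT 2, 2 without Sirt6-/- 1 and 0 without Sirt6-/- 2. Foxj1, the regulator of motile cilia, had counts of 314 and 879 in WT against 3295 and 1213 in Sirt6-/-, with a log2 fold change of 1.98 ± 0.72 (SE) and adjusted p = 0.552 in edgeR. Its unadjusted p was not under 0.05 without Sirt6-/- 1 (1.02) or WT 1 (1.38), nor with the replicate block (1.98). The radial spoke gene Rsph4a had counts of 820 and 981 in WT against 422 and 439 in Sirt6-/-, with a log2 fold change of -1.01 ± 0.33 (SE) and adjusted p = 0.541 in edgeR, and without WT 2 (-0.86), Sirt6-/- 1 (-1.03) or Sirt6-/- 2 (-1.03), or in limma on TPM plus 1 (-0.87) or plus 0.1 (-1.0), the unadjusted p was not under 0.05. Spag6, of the central apparatus, had counts of 863 and 805 in WT against 362 and 218 in Sirt6-/-, with a log2 fold change of -1.46 ± 0.42 (SE) and adjusted p = 0.541 in edgeR, and without Sirt6-/- 2 (-1.14) the unadjusted p was not under 0.05.

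**Figure D4:**
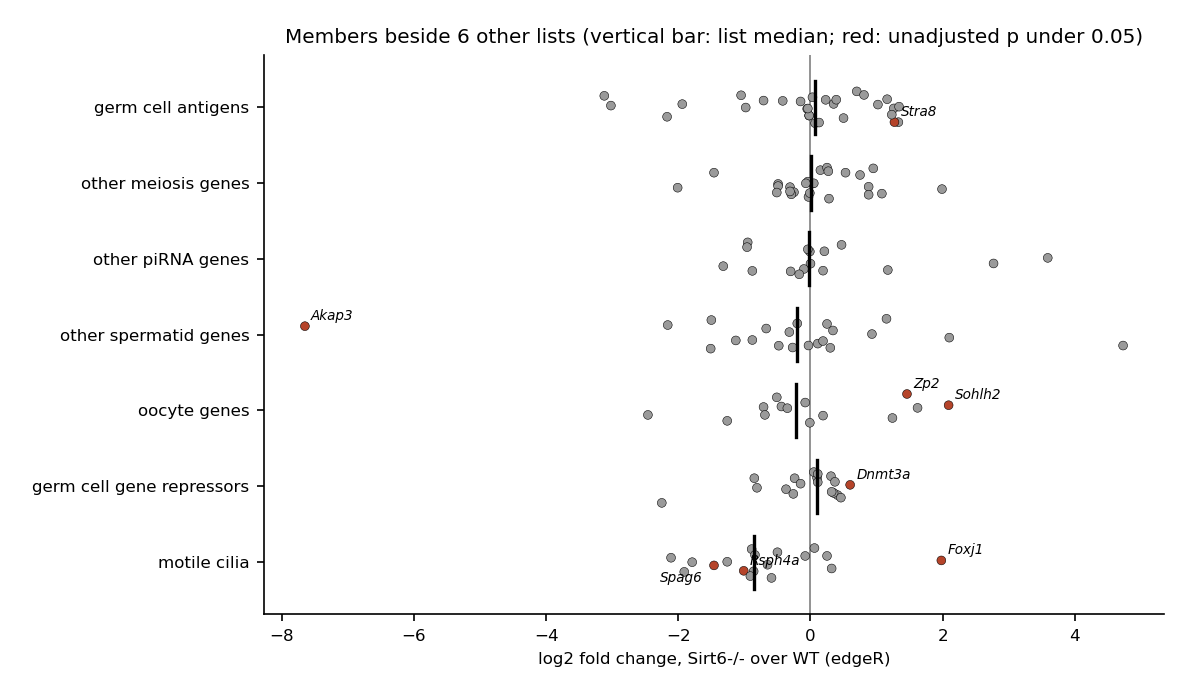
Fitted log2 fold change of each tested gene, libraries labelled Sirt6-/- over WT, for the members and 6 other lists; vertical bars are list medians, and red points passed an unadjusted p of 0.05. The germ cell antigens center on 0.07 with 1 red point, Stra8, and motile cilia genes center on -0.85.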

How the data were processed

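RNA-seq covered 4 libraries of sorted mTECs. The authors used FastQC and Trim Galore on the reads, HISAT2 (2.1.0) for alignment to mm10 and StringTie (1.3.3) for quantification, per the submitters' processing notes and the methods of the study. They deposited raw counts for 23337 genes and 1 file of TPM values per library. The TPM files end with a line of the column total, which was left out. The annotation and the use of strand are not given in the sources used here.

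Counts were tested with edgeR 4.0.16 in R 4.3.3 (TMM, filterByExpr at its defaults of 10 counts and 15 in total, quasi-likelihood test). P-values were adjusted by Benjamini-Hochberg over the 18547 genes tested. Samples were grouped by the genotype in the labels. Fold changes are Sirt6-/- over WT. Standard errors given with edgeR were computed as the absolute log2 fold change over the square root of the F value of its test. CPM used TMM factors, and log2 differences between libraries used counts plus 2. A group at 3 counts or fewer per library was set to 3. An exact permutation test of 2 libraries against 2 cannot go below p = 0.333, so none was used. The p-values rest on 2 libraries per group, with a spread estimated in part from the other genes.

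The members and all gene lists were chosen with earlier results of these data known. Every member could be named. Counts, fold change and p were to be given in full for members at an unadjusted p under 0.05 and for the 2 most abundant of each of 9 roles, and up to 4 genes of each other list at that p. 17 list symbols were matched through older names in RefSeq. Positions and exon overlaps came from GENCODE M21 on GRCm38, and promoters from RefSeq on GRCm38.p6. Alternatives were DESeq2 1.42.0, other scalings and filters, a replicate block, limma 3.58.1 on TPM after adding 1 or 0.1 and taking log2, and fits without 1 library at a time. The procedure was tested on simulated data of this comparison. At an adjusted p of 0.05, edgeR called 125 of 200 genes changed 4-fold or 8-fold among 18018 genes. Those 200 were drawn from all genes tested, with a spread set by their level. The share called does not carry over to the members, whose median standard error was 1.09 against 0.41 over all tested genes.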

Additional observations from a re-analysis of the deposited data

How the results depend on the processing

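The one count of members higher at an unadjusted p under 0.05 was 1 in every setting that kept all 4 libraries, including DESeq2 and the replicate block, and ran from 0 to 4 with a library left out. The count lower was 1 with only genes above 0.1 TPM in all libraries (Sycp1) and 0 to 1 with a library left out. No member passed an adjusted p of 0.05 in any of 12 settings. Over all genes edgeR called 1 and DESeq2 354. The members' median log2 fold change ran from -0.02 to 0.10 with all libraries and from -0.29 to 0.43 with 1 left out, where the lone library was assumed to vary like the others. Deviations of same-numbered libraries correlated at -0.0544. With 2 libraries per group this cannot tell whether the replicate numbers of the labels pair the libraries. With a replicate block Stra8 was at 1.29 (adjusted p = 0.777 in edgeR), Syce1 at 0.62 and Izumo1 at 0.09, the latter pair with a changed sign. Under the block Foxj1 (1.98) and Akap3 no longer passed an unadjusted p of 0.05.

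The sign of Syce1 was also reversed by limma on TPM plus 1 (0.13) or plus 0.1 (0.49), log2 scale, that of Izumo1 in both (0.04 and 0.08) and that of Acrv1 in the second (-0.01). Fabp9 was at -0.01 under upper quartile scaling and -0.02 when scaled by library size alone. With a library left out, log2 fold changes ran from 1.0 to 1.58 for Stra8, 0.61 to 2.83 for Dazl, -2.77 to 0.72 for Ddx4, -0.85 to 2.13 for Syce1, -1.14 to 0.55 for Sycp2, 0.05 to 1.28 for Piwil2, -2.46 to 0.69 for Tdrd5, -0.66 to 0.39 for Tnp2, -0.002 to 0.39 for Odf2, -0.24 to 0.43 for Fabp9, 0.51 to 3.47 for Ldhc, -0.61 to 0.85 for Izumo1, -0.62 to 0.59 for Acrv1 -0.23 to 0.80 for Tex14, 0.40 to 2.85 for Prm2, -0.96 to -0.05 for Spo11 and -8.42 to -1.85 for Tex101. Fewer samples were fitted there, and the cause of the other changes was not tested.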
